A study of Mus musculus with 8 samples.

Results

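The 10 genes described here encode sensors of nucleic acids and the adaptors, kinase and transcription factor that carry their signal: Cgas, Sting1, Ifih1, Dhx58, Mavs, Tlr3, Tlr7, Zbp1, Tbk1 and Irf3. They were taken by symbol from an expression table of 22962 mouse genes, and all 10 were found. The RNA came from wild-type stromal vascular fraction cells, the non-adipocyte cells of fat, from tissue the labels call only gonadal, and these cells had been differentiated into adipocytes. Both groups shared that origin and genotype, and differed in receiving the solvent DMSO (4 libraries) or DoxSa (4 libraries) on day 6. The labels do not spell DoxSa out, though the title of the series concerns 1-deoxysphingolipids. The sources used here do not give the dose, the sex and age of the mice, or whether each library came from its own culture or animal, so p-values cover the spread between these libraries, which may be technical.

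As background, cells treat DNA in the cytosol, and RNA that looks viral, as danger signals. The enzyme cGAS (gene Cgas) binds cytosolic DNA and makes the messenger cGAMP, which activates STING (Sting1) in the endoplasmic reticulum. The helicases RIG-I (Rigi), MDA5 (Ifih1) and LGP2 (Dhx58) bind RNA in the cytosol, and RIG-I and MDA5 signal through MAVS on mitochondria. TLR3 and TLR7 read RNA in endosomes, and ZBP1 binds nucleic acids in the left-handed Z form and can start cell death. The STING and MAVS routes lead to the kinase TBK1, the factor IRF3 or related factors, and type I interferon. Interferon in turn raises several of the sensors. In fat tissue these pathways are studied for their part in the inflammation of obesity.

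Values are FPKM, reads scaled for gene length and library size, so levels can be compared between genes. The library totals recovered from the table lay between 39213008 and 41365861 reads. Differences were tested with limma on log2(FPKM + 1) across the 12060 genes averaging 0.5 FPKM or more over the 8 libraries, and a gene was called at a Benjamini-Hochberg adjusted p under 0.05. Fold changes on this scale understate the change of low genes. All 10 genes passed the minimum. Adipocyte markers were abundant, with a sum over 10 markers of 11172 to 11766 FPKM in DoxSa and 11222 to 11611 FPKM in DMSO, but the cultures also held much macrophage RNA. The sum over 12 macrophage markers was 6602 to 7612 FPKM in DMSO and 7337 to 7837 FPKM in DoxSa, none of them at 0. All 12 had positive log2 fold changes (median 0.12), as had 6839 of all 12060 tested genes. Those of Csf1r (0.0004), Mrc1 (0.04) and Tyrobp (0.04) were near 0. Of the 12, 3 were called higher (Ptprc, Cd14 and Fcgr1, with log2 fold changes of 0.26, 0.36 and 0.33), beside 3.88% of all tested genes. Most of the adipocyte sum came from Fabp4 (means of 8698 FPKM in DMSO and 8852 FPKM in DoxSa). Most of the macrophage sum came from Lyz2 (4631 and 5051 FPKM). In bulk RNA, more cells of a type cannot be told apart from more RNA per cell, and the part of macrophages in the results was not tested. Markers of plasmacytoid dendritic cells (3 in the table) and of B and T cells (6 in the table) summed to at most 0.0387 and 0.0661 FPKM in any library. The sum over 6 endothelial markers was low but apart between groups, at 1.42 to 1.82 FPKM in DMSO and 1.94 to 2.17 FPKM in DoxSa. Each of the 6 genes overlapped, the means of Tek and Cldn5 were lower in DoxSa and the others higher. Only Pecam1 was tested, and it was not called (limma adjusted p = 0.483). The sum over 4 mesothelial markers was apart and lower in DoxSa, at 16.25 to 16.9 FPKM in DMSO and 11.1 to 15.6 FPKM in DoxSa. It was almost all Krt19, which was not called (limma adjusted p = 0.113). The other 3 stayed under 0.5 FPKM in every library. Progenitor and fibroblast markers (8, at 3157 to 3510 and 3116 to 3537 FPKM) and mural markers (4, at 3.90 to 5.17 and 5.14 to 5.78 FPKM) overlapped. Of the 10 adipocyte markers 1 fell (Retn, -0.20), beside 2.02% of all tested genes. Negative log2 fold changes were found for 9 of the 10 (median -0.08), and for 5221 of all 12060 tested genes. Retn, Cidec and Krt19 were apart between groups with DoxSa below, as were 4.71% of all tested genes. Ptprc, Cd14 and the mural marker Abcc9 were apart with DoxSa above, as were 7.8% of all tested genes.

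In DoxSa, 3 of the 10 genes rose and 0 fell: Ifih1, Dhx58 and Zbp1, at 1.48, 1.49 and 1.57 times their DMSO means. Of all 12060 tested genes, 468 (3.88%) were called higher and 244 (2.02%) lower, with 384 and 316 after quantile normalization. At an unadjusted p under 0.05, limma gave 5 higher and 0 lower among the 10, beside 1520 higher and 873 lower of all 12060. On recovered reads voom called 4 higher and 0 lower, where voom called 5.2% of all 12060 tested genes higher and 317 lower. The genes that rose detect RNA or Z-form nucleic acids. Neither DNA sensing gene, neither adaptor and neither shared signalling gene passed the test. Outside the 10, 5 of 24 tested DNA sensing genes and 5 of 27 tested RNA sensing genes were called higher. Their median log2 fold changes were 0.07 and 0.08. The median log2 fold change of the 10 genes was 0.11, beside 0.01 over all tested genes. By arm it was 0.11 for the 2 DNA sensing genes and 0.28 for the 5 RNA sensing genes, and the difference between the arms was not tested. None of the 3 calls held in every alternative. Leaving out DoxSa 1 or DoxSa 2 left 0 of the 10 called, leaving out DMSO 2, DMSO 3 or DoxSa 3 left 1, and dropping the filter on low values left 0.

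**Figure D1:**
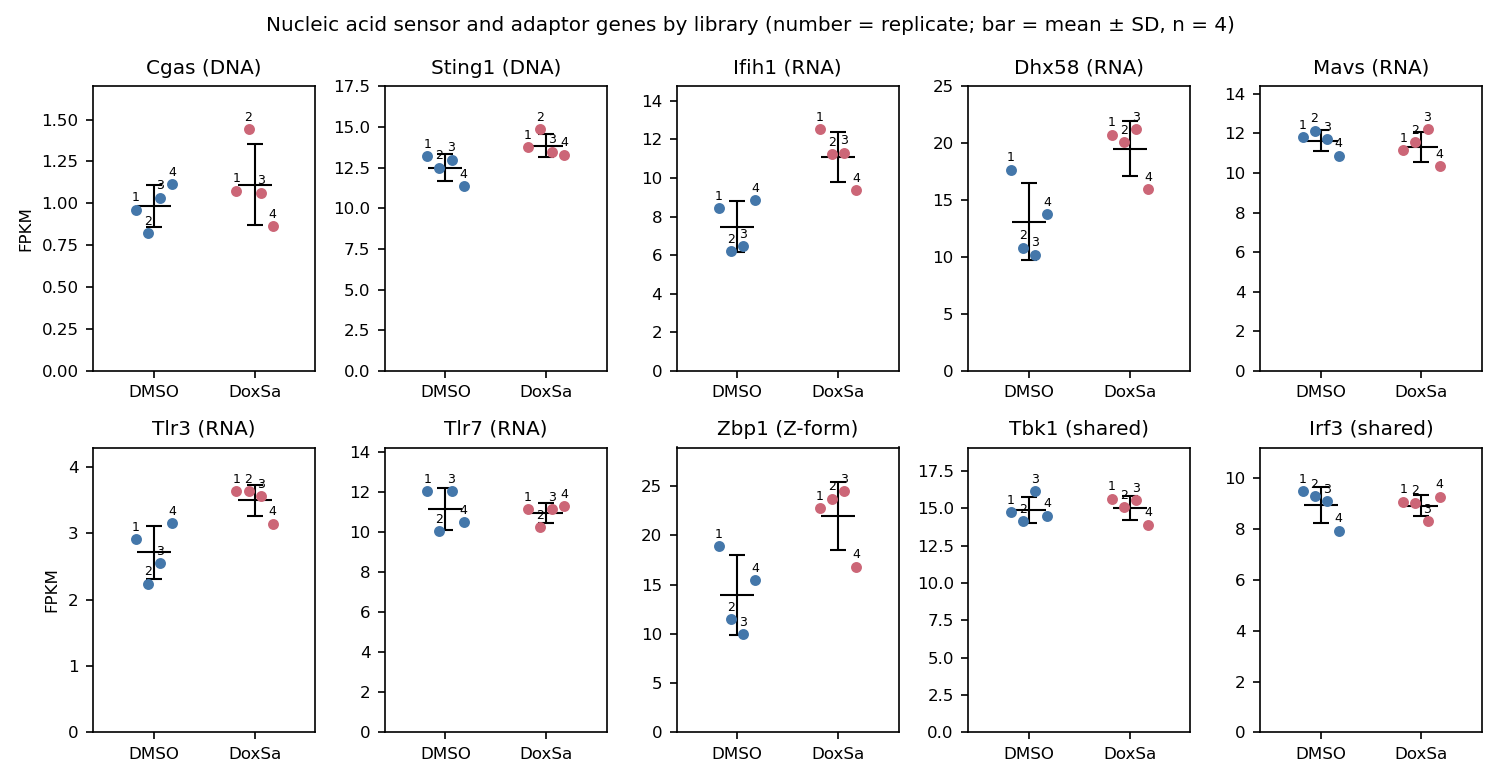
FPKM of each gene (vertical axes start at 0 and differ between panels) in the 4 DMSO and 4 DoxSa libraries, with the replicate number beside each point and the mean ± SD as bars. Ifih1 and, narrowly, Sting1 separate between the groups, the other 8 genes overlap, and DoxSa 4 is the lowest DoxSa library for 8 of the 10 genes, all but Irf3 and Tlr7.

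The DNA sensor Cgas was the lowest of the 10 genes. It measured 0.963, 0.823, 1.03 and 1.12 FPKM in DMSO 1 to 4 and 1.08, 1.44, 1.06 and 0.864 FPKM in DoxSa 1 to 4. The groups overlapped: DoxSa 2 was the highest library, and DoxSa 4 lay below 3 of the 4 DMSO values. The log2 fold change was 0.08 ± 0.08 (SE, limma adjusted p = 0.632, 95% interval -0.09 to 0.26). Without the compression of the added 1, voom on the recovered reads gave 0.15 ± 0.15 (95% interval -0.17 to 0.48). Cgas rested on 132 to 234 reads per library, and counting error alone spans 1.26 to 1.64 FPKM in DoxSa 2 (exact 95% Poisson interval, counting error only).

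Sting1, the adaptor that cGAMP activates, was much more abundant than Cgas. It measured 13.2, 12.5, 13.0 and 11.4 FPKM in DMSO 1 to 4 and 13.8, 14.8, 13.5 and 13.3 FPKM in DoxSa 1 to 4. All DoxSa libraries lay above all DMSO libraries, but the lowest DoxSa value (13.299 FPKM in DoxSa 4) and the highest DMSO value (13.197 FPKM in DMSO 1) nearly touched. The log2 fold change of 0.14 ± 0.05 (SE, 95% interval 0.02 to 0.25) did not pass the test (limma adjusted p = 0.163). Sting1 and Ifih1 were the 2 of 10 genes whose groups did not overlap, where 7.8% of all tested genes had DoxSa apart and above and 4.71% had it apart and below (0 of the 10).

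Ifih1, the gene of the RNA sensor MDA5, measured 8.42, 6.21, 6.475 and 8.83 FPKM in DMSO 1 to 4 and 12.5, 11.2, 11.3 and 9.37 FPKM in DoxSa 1 to 4. Every DoxSa library was above every DMSO library, while within DMSO replicates 1 and 4 were above replicates 2 and 3. The group means were 7.48 ± 1.33 and 11.1 ± 1.296 FPKM (SD, n = 4), and the log2 fold change was 0.52 ± 0.11 (SE, limma adjusted p = 0.0172). It was called in 15 of 18 alternatives (adjusted p between 0.00223 and 0.109) and lost its call without DoxSa 1 (0.0553), without DoxSa 2 (0.0538) and when low values were kept.

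Dhx58, the gene of LGP2, a helicase that binds RNA but lacks the signalling domains of MDA5, measured 17.7, 10.8, 10.2 and 13.8 FPKM in DMSO 1 to 4. In DoxSa 1 to 4 it measured 20.7, 20.1, 21.2 and 15.9 FPKM. DoxSa 4 lay below DMSO 1, so the groups overlapped, and the other 3 DoxSa libraries were above all DMSO libraries. Group means of 13.1 ± 3.41 and 19.5 ± 2.42 FPKM (SD, n = 4) gave a log2 fold change of 0.56 ± 0.14 (SE, limma adjusted p = 0.0437). Its call was narrow and held in 7 of 18 alternatives (adjusted p between 0.00491 and 0.195), among them 2 of the 8 that left out a library (DMSO 1 or DoxSa 4).

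Mavs, the mitochondrial adaptor of MDA5 and RIG-I, measured 11.8, 12.1, 11.7 and 10.9 FPKM in DMSO 1 to 4 and 11.1, 11.6, 12.2 and 10.4 FPKM in DoxSa 1 to 4. The ranges overlapped almost fully. The log2 fold change was -0.04 ± 0.05 (SE, limma adjusted p = 0.752, 95% interval -0.15 to 0.08), and whether it differed from that of Ifih1 was not tested.

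The endosomal receptors gave unlike values. Tlr3, which binds double-stranded RNA, measured 2.91, 2.24, 2.55 and 3.16 FPKM in DMSO 1 to 4 and 3.63, 3.64, 3.57 and 3.15 FPKM in DoxSa 1 to 4. DoxSa 1 to 3 were above all DMSO libraries, and DoxSa 4 fell just below DMSO 4. The log2 fold change of 0.28 ± 0.08 (SE) narrowly missed the threshold (limma adjusted p = 0.0549). It passed in 5 of 18 alternatives (adjusted p between 0.0211 and 0.187), including voom on the recovered reads, where it was 0.37 ± 0.09 on the uncompressed scale.

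Tlr7, the receptor of single-stranded RNA, measured 12.1, 10.1, 12.1 and 10.5 FPKM in DMSO 1 to 4 and 11.2, 10.2, 11.2 and 11.3 FPKM in DoxSa 1 to 4. All DoxSa values lay within the range of DMSO. The log2 fold change was -0.02 ± 0.06 (SE, limma adjusted p = 0.898, 95% interval -0.15 to 0.11).

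Zbp1 had the largest log2 fold change of the 10 genes. It measured 18.9, 11.5, 9.96 and 15.4 FPKM in DMSO 1 to 4 and 22.8, 23.7, 24.5 and 16.8 FPKM in DoxSa 1 to 4. As for Dhx58, DoxSa 4 lay below DMSO 1 and the other 3 DoxSa libraries were above all of DMSO. Means of 13.95 ± 4.03 and 21.96 ± 3.49 FPKM (SD, n = 4) gave a log2 fold change of 0.64 ± 0.17 (SE, limma adjusted p = 0.0488). That call was the closest to the threshold and held in 5 of 18 alternatives (adjusted p between 0.0105 and 0.208), with the same 2 left-out libraries as for Dhx58.

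Tbk1, the kinase shared by the STING and MAVS routes, measured 14.7, 14.1, 16.2 and 14.5 FPKM in DMSO 1 to 4 and 15.6, 15.1, 15.5 and 13.9 FPKM in DoxSa 1 to 4. Irf3, the factor it phosphorylates, measured 9.50, 9.31, 9.10 and 7.93 FPKM in DMSO 1 to 4 and 9.08, 9.04, 8.31 and 9.27 FPKM in DoxSa 1 to 4. Both overlapped between groups. The log2 fold changes were 0.01 ± 0.05 (SE, 95% interval -0.10 to 0.13) for Tbk1 and -0.00 ± 0.06 (95% interval -0.13 to 0.12) for Irf3, with limma adjusted p = 0.922 and 0.985. These are transcript levels, and activation of TBK1 and IRF3 runs through phosphorylation, which was not measured.

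**Figure D2:**
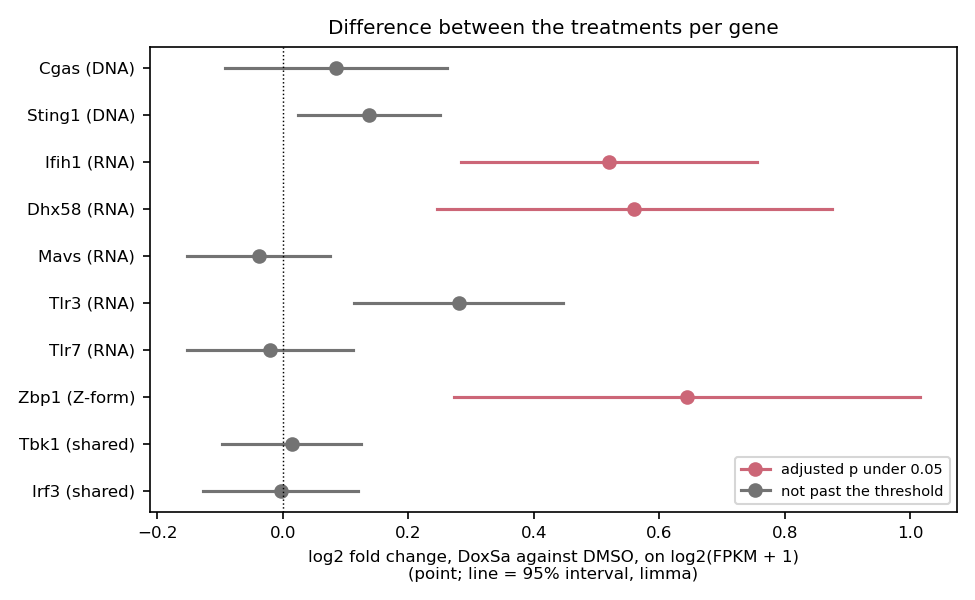
Log2 fold change of DoxSa against DMSO on log2(FPKM + 1) for each gene (points) with its 95% interval from limma (lines). Ifih1 (0.52), Dhx58 (0.56) and Zbp1 (0.64) are the genes past the threshold, and the intervals of Cgas, Mavs, Tlr7, Tbk1 and Irf3 include 0.

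DNA and RNA sensing were also set side by side within each library. The sensor ratio, Ifih1 over Cgas, came to 8.74, 7.54, 6.27 and 7.91 for DMSO 1 to 4 and to 11.6, 7.80, 10.6 and 10.9 for DoxSa 1 to 4. DoxSa 1, DoxSa 3 and DoxSa 4 exceeded all of DMSO, and DoxSa 2, where Cgas was highest, did not. The adaptor ratio, Mavs over Sting1, came to 0.895, 0.971, 0.901 and 0.958 for DMSO 1 to 4 and to 0.810, 0.778, 0.904 and 0.779 for DoxSa 1 to 4. Here DoxSa 3 overlapped with DMSO and the others were lower. These ratios were chosen after the values were seen and carry no test.

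In DMSO the genes ranked by mean level as Tbk1, Zbp1, Dhx58, Sting1, Mavs, Tlr7, Irf3, Ifih1, Tlr3 and Cgas. Neighbours overlapped in range from Tbk1 down to Tlr7, and so did Irf3 and Ifih1, whereas Tlr7 and Irf3, Ifih1 and Tlr3, and Tlr3 and Cgas were apart. In DoxSa, Zbp1 and Dhx58 had the highest means, and all 4 values of Ifih1 lay above all 4 of Irf3. Dhx58 and Sting1, whose ranges overlapped in DMSO, were apart in DoxSa.

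The same libraries were high or low for several sensors. Relative to the mean of the 8 libraries on log2(FPKM + 1), Ifih1, Dhx58, Zbp1 and Tlr3 were lowest in DMSO 2 and DMSO 3, at -0.48 and -0.43 for Ifih1 and -0.54 and -0.73 for Zbp1. DoxSa 4 stood near the overall mean, at 0.04 for Ifih1, 0.01 for Dhx58, -0.03 for Zbp1 and 0.03 for Tlr3. As a description, deviations from the group means of these 4 genes correlated with r between 0.753 and 0.983 over their 6 pairs (8 libraries, which share library and depth). Cgas correlated with the same 4 genes at r between 0.335 and 0.660, Sting1 between -0.158 and 0.140 and Irf3 between -0.574 and -0.148.

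**Figure D3:**
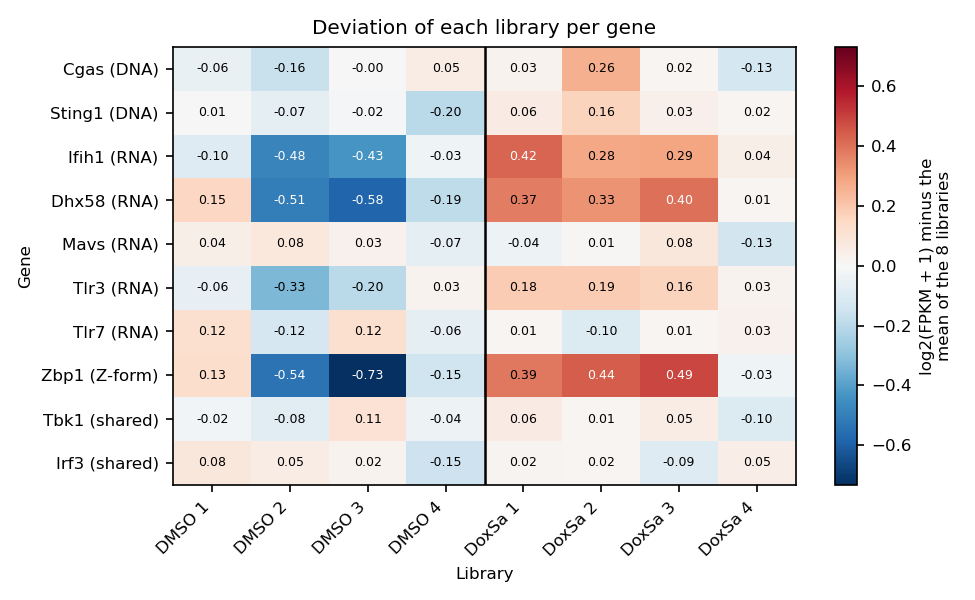
Log2(FPKM + 1) of each gene in each library minus the mean of the 8 libraries, as color and number (DMSO left of the line, DoxSa right). Ifih1, Dhx58, Zbp1 and Tlr3 share low values in DMSO 2 and DMSO 3 and values near 0 in DoxSa 4, while Mavs, Tlr7, Tbk1 and Irf3 stay between -0.15 and 0.12.

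Among 7033 protein coding genes that averaged 5 FPKM or more, those whose deviations from the group means most resembled Ifih1 over the 8 libraries were Iigp1 (r = 0.987), Iigp1c (r = 0.974), Gbp3 (r = 0.972), Atf3 (r = 0.960) and Dtx3l (r = 0.960). All 5 were called higher in DoxSa, with log2 fold changes of 0.97, 0.68, 0.63, 0.68 and 0.44. Iigp1 and Gbp3 encode interferon-induced GTPases, and Iigp1 and Iigp1c are related copies that can share reads. For Cgas they were Sav1 (r = 0.960), Prdx4 (r = 0.952), Cdk11b (r = 0.934), Tnfrsf12a (r = 0.930) and Stx7 (r = 0.907), none of them called. As the highest of so many correlations they carry no p.

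The promoter of Ifih1 is shown at the letters of an interferon-stimulated response element core (GAAA, any 2 bases, then GAAA again). The search covered both strands from 250 bases before to 50 after the annotated start (RefSeq, GRCm38.p6). Of the 6 genes among the 10 with a promoter in that table (Cgas, Ifih1, Mavs, Irf3, Tlr3 and Tbk1), Ifih1 held a match. Of all 32851 promoter windows, 3.44% did. For Dhx58, Zbp1, Sting1 and Tlr7 no promoter was available. Of 17 further genes named here with a promoter, 6 held a match (Rigi, Eif2ak2, Stat2, Ifi203, Ifi205 and Ifi211). Irf7, Irf1, Trim25 and Zc3hav1 were among those without a match. Most of the 17 were named because they were called higher. The count is per gene, and some genes have several windows, so it is not directly comparable with the share of windows. In these 30-base stretches, 5′ to 3′ on the gene's strand, capitals mark the match, on the opposite strand for Rigi and Stat2. This build differs from that of the expression table, and a match is a description, not a site.
Ifih1 (chr2:62646206-62646235, minus strand, match from base 33 after the start): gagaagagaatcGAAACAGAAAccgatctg
Rigi (chr4:40239804-40239833, minus strand, match from base 3 after the start): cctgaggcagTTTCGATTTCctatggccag
Eif2ak2 (chr17:78882535-78882564, minus strand, match from base 19 after the start): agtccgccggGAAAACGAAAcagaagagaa
Stat2 (chr10:128270266-128270295, plus strand, match from base 222 before the start): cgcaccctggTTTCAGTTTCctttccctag

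Other genes of the RNA arm rose in part. Of 27 tested RNA sensing genes outside the 10, 5 were called higher and 0 lower, with a median log2 fold change of 0.08 (0 lower also at an unadjusted p under 0.05 and by voom, which called 9 higher). Over all 12060 tested genes, limma called 3.88% higher and 2.02% lower, and voom called 627 higher and 317 lower. Rigi, the gene of RIG-I, measured 19.4, 13.5, 13.9 and 16.9 FPKM in DMSO 1 to 4 and 24.6, 25.9, 24.9 and 19.0 FPKM in DoxSa 1 to 4. DoxSa 4 lay below DMSO 1, as it did for Dhx58, and the log2 fold change of Rigi was 0.54 ± 0.11 (SE, limma adjusted p = 0.0185). Without DoxSa 1, DoxSa 2 or DoxSa 3 the call of Rigi was lost (adjusted p between 0.0518 and 0.0639).

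Trim25, a ubiquitin ligase that helps activate RIG-I, rose by 0.40 ± 0.08 on the log2 scale, and Zc3hav1, the gene of the antiviral zinc finger protein ZAP, by 0.37 ± 0.07. Eif2ak2, the gene of the RNA-activated kinase PKR, rose by 0.41 ± 0.09, from a mean of 14.5 ± 2.15 to 19.5 ± 1.31 FPKM (SD, n = 4). Trim25 was not called without DoxSa 2, nor Eif2ak2 without DoxSa 1. Tlr8, an endosomal RNA receptor related to Tlr7, rose by 0.21 ± 0.05, and whether it differed from Tlr7 in response was not tested. Its call was lost without DoxSa 2, DoxSa 3 or DoxSa 4, and with median-of-ratios or quantile scaling.

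Other genes of the DNA arm also rose in part. Of 24 tested genes, 5 were called higher and 0 lower, with a median log2 fold change of 0.07 (0 lower also at an unadjusted p under 0.05 and by voom, which called 6 higher). The shares over all tested genes were 3.88% higher and 2.02% lower by limma, and 5.2% higher by voom. The 4 called besides Enpp1 belong to the PYHIN family of DNA-binding, interferon-induced proteins, whose members are alike enough to share reads. Other PYHIN genes of the list were not called: Aim2 had a log2 fold change of 0.07 (limma adjusted p = 0.610) and Mndal of 0.46 (0.0509). Ifi204, the most abundant, measured 65.7, 47.2, 51.9 and 64.3 FPKM in DMSO 1 to 4 and 87.5, 89.3, 81.2 and 69.9 FPKM in DoxSa 1 to 4, with every DoxSa library above DMSO (log2 fold change 0.52 ± 0.11, SE, limma adjusted p = 0.0168). Ifi203, Ifi205 and Ifi211 rose by 0.61 ± 0.12, 0.64 ± 0.11 and 0.48 ± 0.10. Without DoxSa 2 neither Ifi204 nor Ifi211 was called, nor Ifi204 without DoxSa 1.

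Enpp1 encodes the enzyme that breaks down cGAMP outside cells. It measured 3.83, 3.51, 4.27 and 3.61 FPKM in DMSO 1 to 4 and 4.76, 5.35, 5.18 and 5.16 FPKM in DoxSa 1 to 4. The groups were well apart, with a log2 fold change of 0.35 ± 0.06 (SE, limma adjusted p = 0.00564). Unlike for Ifih1, Dhx58, Zbp1 and Tlr3, DoxSa 4 was not the lowest DoxSa library. Enpp1 was called in all 18 alternatives run, and among the named pathway genes it was the only one called when low values were kept.

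**Figure D4:**
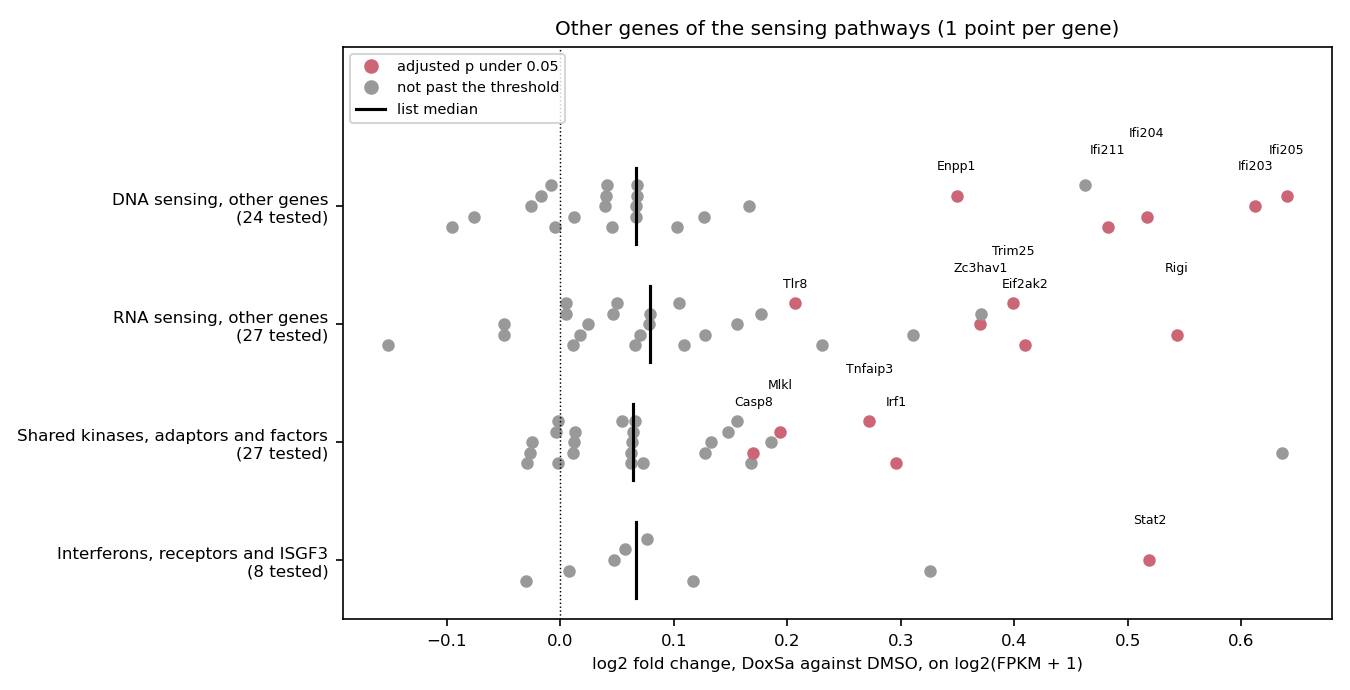
Log2 fold change of DoxSa against DMSO on log2(FPKM + 1) for the tested genes of 4 pathway lists (1 point per gene, called genes colored and named, black line at the list median). List medians lie between 0.06 and 0.08, called genes all lie to the right of 0, and the uncalled point at 0.64 is Irf7.

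Among 27 tested kinases, adaptors and factors shared by the arms, 4 were called higher and 0 lower, with a median of 0.06 (0 lower also at an unadjusted p under 0.05 and by voom, which called 4 higher). For all tested genes these shares were 3.88% higher and 2.02% lower by limma, and 5.2% higher by voom. Casp8 and Mlkl, which encode a protease and a pore-forming protein of the death pathways that ZBP1 can engage, rose by 0.17 ± 0.04 and 0.19 ± 0.05. Irf1, an interferon-regulated transcription factor, rose by 0.30 ± 0.07 and Tnfaip3, the gene of the NF-kB inhibitor A20, by 0.27 ± 0.06. Each of these calls depended on single libraries: without DoxSa 1 or DoxSa 2, 0 of the 27 were called, and without DMSO 2, DMSO 3 or DMSO 4, 1 was. With the replicate number as a block or after quantile normalization 2 were called.

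Ikbke, the gene of a kinase related to TBK1, had a log2 fold change of 0.17 ± 0.06 (SE, limma adjusted p = 0.137). Irf7, the factor that amplifies interferon production, had one of the largest differences and the widest spread. It measured 44.7, 22.5, 19.9 and 35.9 FPKM in DMSO 1 to 4 and 49.3, 47.96, 56.4 and 33.1 FPKM in DoxSa 1 to 4. DoxSa 4 lay below DMSO 1 and DMSO 4. Its log2 fold change of 0.64 ± 0.23 did not pass the test (limma adjusted p = 0.148, and 0.0361 without DMSO 1).

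The interferon gene measured was close to absent. Ifnb1, the gene of interferon beta, had 0, 0, 0 and 1 reads in DMSO 1 to 4 and 0, 2, 0 and 1 reads in DoxSa 1 to 4, under the 0.5 FPKM minimum. Other interferon genes of the list were not analysed here. Of 8 tested genes for interferon receptors, their kinases and the ISGF3 complex, 1 was called higher and 0 lower, with a median of 0.07 (0 lower also at an unadjusted p under 0.05 and by voom, which called 2 higher). Across all tested genes, limma called 3.88% higher and 2.02% lower, and voom 5.2% higher. The gene called was Stat2, a subunit of ISGF3, which interferon receptors activate, and it rose by 0.52 ± 0.12 (SE, limma adjusted p = 0.0332). Its call was lost when DMSO 2, DMSO 3, DoxSa 1, DoxSa 2 or DoxSa 3 was left out. The receptor chain gene Ifnar1 had group means of 18.96 ± 0.578 (DMSO) and 19.6 ± 0.224 FPKM (DoxSa; SD, n = 4) and a log2 fold change of 0.05 ± 0.03 (limma adjusted p = 0.503).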

How the data were processed

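The authors deposited 1 table of FPKM with a symbol and an Entrez identifier per gene. The submitters' processing notes name HISAT2, HTSeq and GRCm39. The sources used here do not give versions, annotation or strandedness, so reads of genes that overlap, antisense ones included, cannot be told apart. Library totals and gene lengths were recovered from the FPKM steps, and for 12060 of 12060 tested genes all values came out as whole reads (within 0.001). The main test was limma 3.58.1 (R 4.3.3, lmFit, then eBayes with its trend on intensity) for log2(FPKM + 1), with no covariate and no further scaling. SE is the moderated standard error. On data simulated for this comparison (12029 genes run), the test recovered 87.8% of 1.3-fold and 100% of 1.5-fold changes, and called 11 of 11830 unchanged genes. The simulation drew genes independently and gave all of them the same spread, the median within groups. These shares therefore do not apply to genes that vary more between libraries, such as Irf7, not called at 1.52 times its DMSO mean. Alternatives were other pseudocounts, filters, scalings and variance models, voom on recovered reads, a replicate block and leaving out each library. Members, pathway lists and markers were chosen with earlier results of these data known. Named beside the 10 genes were the called genes of each list (all, as no list had over 6), 5 fixed genes (Rigi, Ikbke, Irf7, Ifnb1 and Eif2ak2) and the 5 genes most like Cgas and Ifih1. Ifnar1, Aim2, Mndal and the cell type markers named singly were named after their values were seen. One list gene was matched through its RefSeq identifier, 1 gene of the interferon list is not reported here, and 7 others of it were not analysed here. Python 3.11.15 was used for other steps.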

Additional observations from a re-analysis of the deposited data

Results flagged for a closer look

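Of 56 groups of 4 libraries examined (28 genes in 2 groups), 4 held a library far from the other 3, where chance flags about 1 in 20. DoxSa 4 was low for 2 genes: Tlr3 at 3.15 FPKM beside 3.57 to 3.64 and Stat2 at 17.9 FPKM beside 22.98 to 23.6. DoxSa 2 was low for Tlr7, at 10.2 FPKM beside 11.2 to 11.3. Ifnb1 in DMSO 4 stood apart at 0.0294 FPKM beside 0, which is 1 read.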

How the results depend on the processing

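When low values were not filtered, 158 genes were called higher and 108 lower, 0 of the 10 sensor and adaptor genes, and 1, 0, 0 and 0 of the other DNA sensing, RNA sensing, shared and interferon pathway genes; the cause was not tested. Of the 10, 1 was called after median-of-ratios scaling, after quantile normalization or with no intensity trend. Voom called 9 other RNA sensing and 2 interferon pathway genes, and 2 shared genes were called after quantile normalization or with the replicate block. Leaving out 1 library gave 234 to 486 genes higher and 152 to 234 lower, and 0 to 4 of the 10 higher. It gave 3 to 6 other DNA sensing, 2 to 7 other RNA sensing, 0 to 4 shared and 0 to 2 interferon pathway genes. The direction of the 3 called genes among the 10, and of 17 further named genes, held in every alternative run. It also held for the other genes of the 10 except Tbk1, Irf3 and Tlr7: Tbk1 was -0.00169 after median-of-ratios scaling, -0.0188 after quantile normalization and -0.00868 to 0.0521 over left-out libraries, Irf3 was -0.0548 to 0.0271 and Tlr7 -0.0662 to 0.0144. The labels do not say what a shared replicate number marks. Deviations of same-numbered libraries correlated at -0.058, 0.052, -0.099 and 0.065, which cannot show whether the libraries were paired. The replicate block gave 415 higher and 209 lower genes, with Zbp1, Mlkl and Casp8 not called (limma adjusted p = 0.0645, 0.0710 and 0.0507). Cgas rested on at most 234 reads a library and Ifnb1 on at most 2.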
